A study of Rattus norvegicus with 36 samples.

Results

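The 6 genes described here mark the projection neurons of the striatum and were followed in the nucleus accumbens (ventral striatum) of rats given saline or cocaine: Drd1 (ENSRNOG00000023688), Pdyn (ENSRNOG00000026036) and Tac1 (ENSRNOG00000007374) for the direct pathway, and Drd2 (ENSRNOG00000008428), Adora2a (ENSRNOG00000001302) and Penk (ENSRNOG00000008943) for the indirect pathway. They were chosen by name and identifier, with no threshold on measured values, and are 6 of the 31546 genes in the count tables. All 6 passed the filter on low counts, which kept 15641 genes. The rats were male Sprague-Dawley rats aged 8 weeks that received 3 intraperitoneal injections a day for 5 days and were killed 24 h after the last one. The Sal–Sal group was given saline at every injection (15 in all), Sal–Coc was switched from saline to cocaine on the last day, and Coc–Coc was given cocaine at all 15 injections, each of 20 mg/kg. For Sal–Coc, the labels count 13 saline and 3 cocaine injections, 1 more than the schedule allows, and their phenotype entry reads saline rat. The phenotype entry of the Coc–Coc libraries reads vulnerable rat while their description reads tolerant rat, so that groups were taken from the titles and treatments. Each group held 3 pools, of 2 rats each by the study's methods although the labels name 1 rat per library, and each pool was sequenced as 4 technical replicates. Whole tissue was extracted and no cell type was sorted.

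Most neurons of the striatum are GABAergic projection neurons of 2 kinds. Direct pathway neurons project to the output nuclei of the basal ganglia and carry the dopamine receptor Drd1, whose G protein stimulates adenylyl cyclase, together with the peptide precursors Pdyn, which is cleaved to dynorphins, and Tac1, which is cleaved to substance P and neurokinin A. Indirect pathway neurons reach those nuclei through the pallidum and carry Drd2, a dopamine receptor whose G protein inhibits adenylyl cyclase, the adenosine receptor Adora2a, which stimulates it, and Penk, the precursor of enkephalins. In the nucleus accumbens this division is less strict than in the dorsal striatum. Cocaine blocks the dopamine transporter and so raises dopamine at the receptors of both kinds of neuron.

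Promoter windows of both dopamine receptor genes are shown because the ratio of their counts separated the Coc–Coc pools from those of both other groups. Each sequence is the RefSeq promoter window of the assembly GRCr8, 250 bases before to 50 bases after the transcript start that the RefSeq table uses, on the strand of the gene. For Drd2 that start (58605403) is the outermost start of the annotated gene, whereas for Drd1 it (10546604) lies 1116 bases downstream of it (10545488), so that the Drd1 window falls inside the gene and the 2 windows are not at like positions. Capitals mark GC boxes (GGGCGG, searched on both strands). The Drd1 window lies at chr17:10546354-10546653 and the Drd2 window at chr8:58605153-58605452, both on the plus strand.
Drd1: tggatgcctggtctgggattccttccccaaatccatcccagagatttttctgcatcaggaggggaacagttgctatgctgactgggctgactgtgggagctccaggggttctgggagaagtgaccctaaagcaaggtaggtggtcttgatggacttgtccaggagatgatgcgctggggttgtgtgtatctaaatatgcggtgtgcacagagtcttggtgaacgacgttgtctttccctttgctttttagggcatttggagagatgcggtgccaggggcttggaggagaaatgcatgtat
Drd2: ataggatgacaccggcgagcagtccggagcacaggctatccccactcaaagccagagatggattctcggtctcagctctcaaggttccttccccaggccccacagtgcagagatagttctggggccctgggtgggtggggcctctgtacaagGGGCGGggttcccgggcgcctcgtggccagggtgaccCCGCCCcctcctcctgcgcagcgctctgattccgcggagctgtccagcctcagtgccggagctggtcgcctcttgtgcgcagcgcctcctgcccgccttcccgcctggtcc
The Drd2 window was 67.3% G or C and held 2 GC boxes, with first bases at position -98 on the forward and -61 on the reverse strand relative to the start used. The Drd1 window was 51.7% G or C and held no GC box, no TATAAA and no TGACG, the half-site of the cAMP response element, on either strand. In the window of Pdyn, TATAAA stood at position -13, and in that of Tac1 TGACG stood at position -206 on the reverse strand. The start that the Tac1 window uses lies 239 bases downstream of the outermost start of the gene, so that this match falls inside the annotated gene. Among 33469 windows of the same length, 33.1% held a GC box, 14.2% TATAAA and 21.2% TGACG, so that each of these matches is common. The 4 genes named here had a window in the RefSeq table, and Adora2a and Penk were not looked at in this way.

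The pools were sequenced to between 36372166 and 42449841 counts on genes. Technical replicates scattered about as counting error predicts (chi-square per degree of freedom 1.0038 to 1.0226) and were summed, so that each pool is 1 sample (n = 3 per group). Expression is given in normalized CPM, counts scaled to library size with the TMM factor of each pool. CPM is not corrected for gene length, so that levels are compared between pools and not between genes. In bulk tissue, fewer cells of a type and less RNA per cell cannot be told apart. Each of the 6 genes had at least 4185 counts in every pool, and counting error was 0.566% to 1.55% of the level, while the coefficient of variation between the pools of a group was 5.2% to 46.1%. The spread between pools therefore sets the precision.

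Among the dopamine receptors, Drd1 was measured at 209.9, 189.0 and 135.5 CPM in Sal–Sal pools 1, 2 and 3. The Sal–Coc values were 108.7, 197.8 and 203.4 CPM, and Drd1 in Coc–Coc was at 134.2, 148.6 and 167.2 CPM. The 3 ranges overlapped, and the lowest value belonged to Sal–Coc pool 1. Group means were 178 ± 38.4, 170.0 ± 53.1 and 150.0 ± 16.5 CPM (SD, n = 3) in Sal–Sal, Sal–Coc and Coc–Coc.

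Drd2 was measured at 196.2, 209.6 and 145.9 CPM in the Sal–Sal pools and at 127.2, 213.0 and 228.2 CPM in the Sal–Coc pools. The Coc–Coc values were 234.1, 239.8 and 258.4 CPM. Every Coc–Coc pool was above every pool of the other groups. Coc–Coc pools were higher without overlap for 19.4% of all genes against Sal–Sal and for 7.69% against Sal–Coc. No other gene of the 6 had groups without overlap in any of the comparisons. The Drd2 means were 184 ± 33.6, 189 ± 54.5 and 244 ± 12.7 CPM in Sal–Sal, Sal–Coc and Coc–Coc.

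Adora2a, the adenosine receptor of the indirect pathway, stood at 304.5, 271.8 and 201.0 CPM in Sal–Sal, at 137.5, 261.4 and 257.7 CPM in Sal–Coc and at 254.0, 248.2 and 225.1 CPM in Coc–Coc. The groups overlapped. The means were 259 ± 52.9, 219 ± 70.5 and 242 ± 15.2 CPM.

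The enkephalin precursor Penk stood at 1048, 801 and 709 CPM in Sal–Sal, at 564, 972 and 1027 CPM in Sal–Coc and at 836, 905 and 958 CPM in Coc–Coc. The Coc–Coc pools lay inside the range of either other group, and the means differed by less than the spread between pools, at 853 ± 175, 854 ± 253 and 899.9 ± 60.9 CPM. The dynorphin precursor Pdyn stood at 444, 374 and 251 CPM in Sal–Sal, at 212, 368 and 425 CPM in Sal–Coc and at 342, 341 and 413 CPM in Coc–Coc. Its ranges overlapped as well, with means of 356 ± 98.2, 335 ± 110.2 and 365 ± 41.5 CPM. Tac1, the substance P precursor, varied most between pools. It stood at 248, 261 and 119 CPM in Sal–Sal, at 98.1, 270.1 and 259.9 CPM in Sal–Coc and at 209.9, 170.2 and 185.8 CPM in Coc–Coc. Sal–Sal pool 3 and Sal–Coc pool 1 lay below all other pools. The Tac1 means were 209 ± 78.7, 209 ± 96.5 and 189 ± 20.03 CPM.

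**Figure D1:**
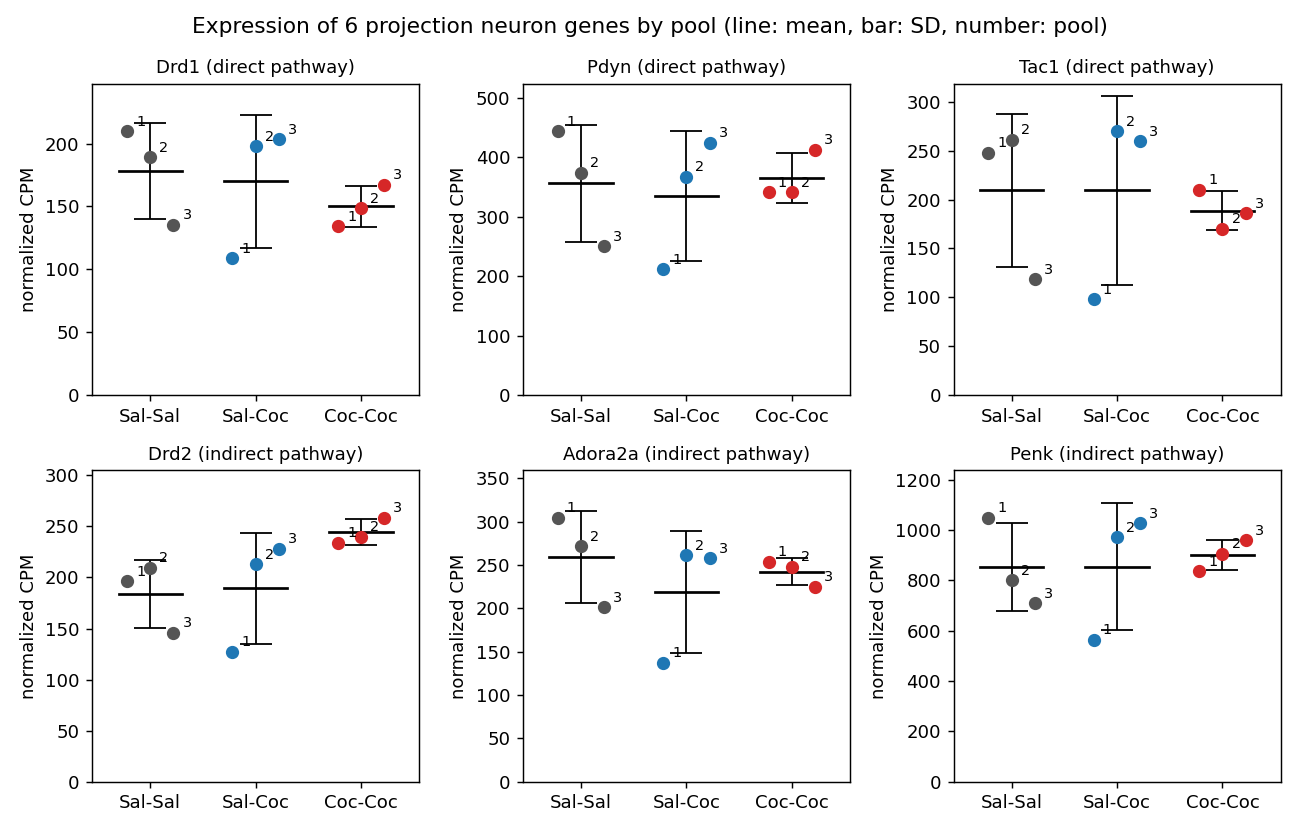
Normalized CPM of the 6 genes (y axis from 0, a panel per gene) in the 3 pools of each group, with the pool number beside each point, the mean as a line and the SD as a bar (n = 3). Drd2 is the only panel in which all Coc–Coc pools, between 234.1 and 258.4 CPM, lie above all others. Of all genes, 19.4% were higher without overlap against Sal–Sal and 7.69% against Sal–Coc. Sal–Sal pool 3 and Sal–Coc pool 1 are the lowest of their groups in every panel.

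The first question was whether cocaine on a single day after saline changed these genes. Between Sal–Coc and Sal–Sal, 0 of the 6 passed an adjusted p of 0.05 (quasi-likelihood test of edgeR, adjusted by Benjamini-Hochberg over 15641 genes), while 16.4% of all genes tested did. At an unadjusted p of 0.05, again 0 of the 6 passed. The adjusted p-values of the 6 ran from 0.4891 to 0.9998. With DESeq2 and with limma-voom, 0 of the 6 were called as well. Adora2a had the lowest of these p-values, with a log2 fold change of -0.24 (SE 0.23, 95% interval -0.76 to 0.27, adjusted p = 0.489). Drd1 changed by -0.07 (SE 0.23) and Drd2 by 0.04 (SE 0.20) on the log2 scale. For the 3 peptide precursors the estimates were -0.09 (SE 0.26) for Pdyn, -0.0002 (SE 0.37) for Tac1 and 0.00 (SE 0.22) for Penk, none distinguishable from 0. No gene of the 6 had pools that did not overlap, compared with 36.1% of all genes.

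The second question was whether cocaine on every day left these genes at another level than saline. Between Coc–Coc and Sal–Sal, 0 of the 6 passed an adjusted p of 0.05, against 10.9% of all genes, and 0 passed an unadjusted p of 0.05. DESeq2 and limma-voom also called 0 of the 6. Drd2 had the largest estimate, a log2 fold change of 0.41 (SE 0.20, 95% interval -0.05 to 0.87), or 1.33-fold with an interval of 0.967 to 1.82. Its adjusted p-value was 0.21 (unadjusted p = 0.074, edgeR over all genes). Its pools did not overlap and were higher, which held for 19.4% of all genes. Leaving out 1 pool at a time gave Drd2 between 0.27 and 0.52, with adjusted p-values of 0.0585 to 0.399. Drd1 had the opposite sign, with a log2 fold change of -0.25 (SE 0.23, 95% interval -0.77 to 0.27, adjusted p = 0.507). The remaining estimates were -0.15 (SE 0.37) for Tac1, -0.10 (SE 0.23) for Adora2a, 0.04 (SE 0.26) for Pdyn and 0.08 (SE 0.22) for Penk. The median over the 6 was -0.03 and that over all genes -0.01.

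The third question was whether repeated cocaine differed from cocaine given on the last day, the contrast that bears on tolerance. Between Coc–Coc and Sal–Coc, 0 of the 6 and 0% of all genes passed an adjusted p of 0.05 in edgeR, while 0 of the 6 and 1453 of all genes passed an unadjusted p of 0.05. DESeq2 called 153 genes of all and 0 of the 6. Drd2 was estimated at 0.37 on the log2 scale (SE 0.20, 95% interval -0.09 to 0.82, adjusted p = 0.589), with pools that did not overlap and were higher, as in 7.69% of all genes. Leaving out Sal–Coc pool 1 lowered this estimate to 0.15. Drd1 was estimated at -0.18 (SE 0.23, adjusted p = 0.823), Tac1 at -0.15 (SE 0.37), Adora2a at 0.15 (SE 0.23), Pdyn at 0.13 (SE 0.26) and Penk at 0.08 (SE 0.22). Any pair of the 3 comparisons shares the pools of 1 group, so that their estimates are not independent.

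**Figure D2:**
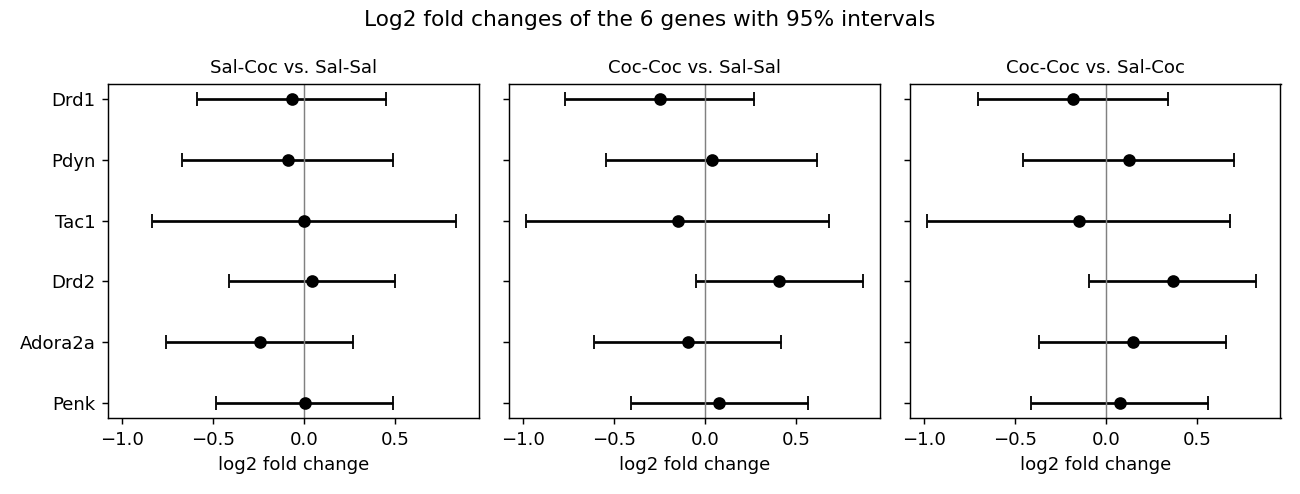
Log2 fold change (x axis) of each of the 6 genes (y axis) in the 3 comparisons, as points with 95% intervals from edgeR's quasi-likelihood fit over 9 pools. All intervals include 0, and the points of Drd2 in both comparisons with Coc–Coc, 0.41 and 0.37, lie farthest to the right.

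In Sal–Sal and Sal–Coc, a single pool was low for all 6 genes, whichever pathway they mark. In Sal–Sal pool 3 all 6 were below the group mean, by 0.25 (Penk) to 0.73 (Tac1) on the log2 scale, which put Tac1 at 0.602 times the mean. In Sal–Coc pool 1 all 6 were again below it, by 0.53 (Drd2) to 0.96 (Tac1), and Tac1 stood at 0.516 times the mean. In Coc–Coc no gene deviated by more than 0.18. There Drd1, Pdyn, Drd2 and Penk were below the mean in pool 1 and above it in pool 3, while Tac1 and Adora2a went the other way. Drd1 was at -0.15 and Adora2a at 0.07 in pool 1, and they were at 0.16 and -0.10 in pool 3. Over the 9 pools, the deviations of any 2 of the genes correlated with r between 0.855 and 0.980. The median r was 0.920 for the 6 pairs from the same pathway and 0.950 for the 9 pairs from different pathways. These correlations describe pools that share a library and its depth, and 2 pools carry most of them. Before the group means were removed, r of log2 CPM ran from 0.563, between Drd1 and Drd2, to 0.946, between Pdyn and Penk.

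**Figure D3:**
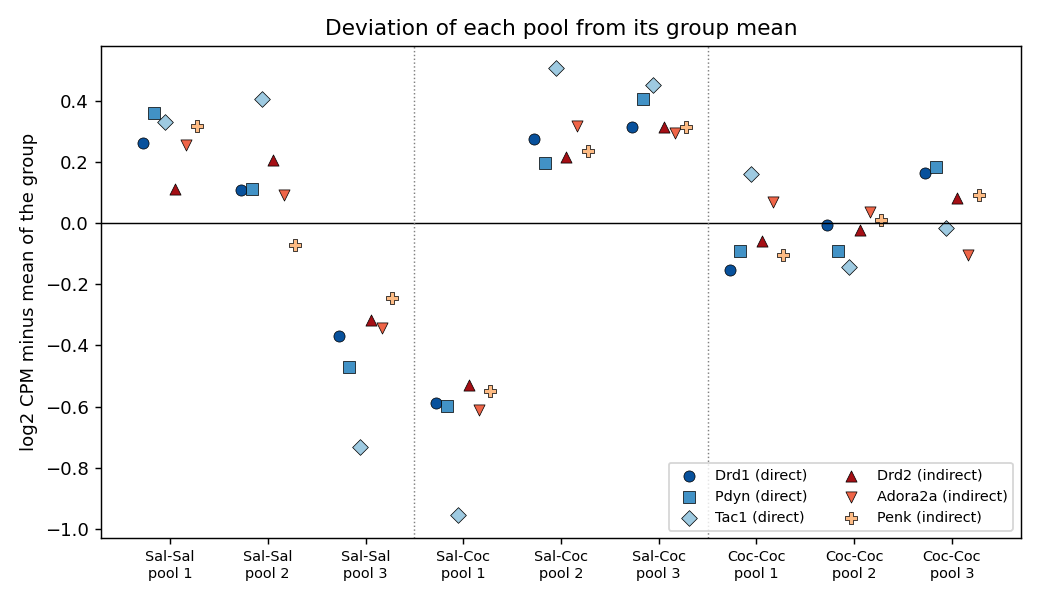
Deviation of log2 CPM from the mean of the group (y axis) in each of the 9 pools (x axis), with a marker for each of the 6 genes, blue for the direct and red for the indirect pathway. Both colours lie below 0 in Sal–Sal pool 3, from -0.73 to -0.25, and in Sal–Coc pool 1, from -0.96 to -0.53.

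The same 2 pools stood apart in genes outside this set. A principal component analysis of 13629 other genes gave a second component, with 25.2% of the variance, on which Sal–Sal pool 3 (-0.58) and Sal–Coc pool 1 (-0.63) lay away from the other 7 pools (0.00 to 0.29). The spread of the 6 genes within groups was large for their level. Among 2213 genes with a mean of at least 100 CPM, the median SD within groups was 0.12 on the log2 scale. Tac1 had an SD of 0.61, at the 99.9th percentile, and Drd2, the least variable of the 6, one of 0.31, at the 94.3th percentile. Both libraries had technical replicates as close to each other as those of the other pools. What sets these 2 pools apart was not tested.

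With Sal–Sal pool 3 and Sal–Coc pool 1 left out, a choice made after seeing the data, the fit was repeated. These pools were the lowest of their groups for all 6 genes, so that leaving them out raises the levels of Sal–Sal and Sal–Coc and narrows their spread by construction, and the calls are no support for a decrease. In that fit 2 of the 6 genes passed the threshold between Coc–Coc and Sal–Sal, both of the direct pathway and both lower, beside 7.78% of all genes called lower and 18.8% called in either direction. Drd1 then had a log2 fold change of -0.41 (SE 0.10, adjusted p = 0.0256) and Tac1 one of -0.43 (SE 0.10, adjusted p = 0.0187), each with 2 Sal–Sal pools against 3 Coc–Coc pools. Drd2 stood at 0.27 (SE 0.08, adjusted p = 0.0502) and Adora2a at -0.25 (SE 0.09, adjusted p = 0.073). Pdyn at -0.16 (adjusted p = 0.358) and Penk at -0.04 (adjusted p = 0.849) were near 0 for their error. Against Sal–Coc in the same fit, 0 of the 6 passed, with Drd1 at -0.42 (adjusted p = 0.219) and Tac1 at -0.49 (adjusted p = 0.185). Sal–Coc compared with Sal–Sal also gave 0 of the 6.

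The ratio of the counts of 2 genes within a pool needs no normalization. For Drd1 and Drd2 it varied less between pools than either level in Sal–Sal and Sal–Coc, with log2 SDs of 0.13 and 0.06 against 0.28 to 0.51, but other ratios, such as Drd1 per Adora2a in Coc–Coc (0.25 against 0.16 and 0.09), varied more. A ratio of counts is not a ratio of molecules, because gene lengths were not applied, and it is compared here only between pools. There were 1.070, 0.902 and 0.929 counts of Drd1 per count of Drd2 in Sal–Sal pools 1, 2 and 3. Sal–Coc pools had ratios of 0.855, 0.929 and 0.891, and Coc–Coc pools of 0.573, 0.619 and 0.647. The Coc–Coc pools were lower than all others, including both pools in which the levels were low. On the log2 scale the means were -0.05 ± 0.13, -0.17 ± 0.06 and -0.71 ± 0.09 (SD, n = 3), a difference of -0.65 between Coc–Coc and Sal–Sal and of -0.54 between Coc–Coc and Sal–Coc. Each difference had p = 0.1 in a two-sided exact permutation test, the smallest p that 3 pools against 3 allow. Over the 3 groups together the exact permutation test gave p = 0.00714 (1680 assignments, smallest possible p = 0.00357). Adjusted over the 15 ratios that the 6 genes form, this was 0.0536, which does not pass 0.05. The 12 technical replicates of a group spanned 0.893 to 1.115 in Sal–Sal, 0.836 to 0.974 in Sal–Coc and 0.558 to 0.663 in Coc–Coc. Between Sal–Coc and Sal–Sal the ratio differed by -0.11 and the pools overlapped (exact permutation p = 0.2).

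The separation of Drd1 from Drd2 has to be read against all genes. For 50.4% of the other 15640 genes tested, the ratio to Drd2 was lower in every Coc–Coc pool than in every Sal–Sal pool, and for 39% it was lower than in every Sal–Coc pool. A lower ratio to Drd2 was thus shared with a large part of the transcriptome, and it was higher for 0.761% and 0.185% of genes. With Drd1 as the reference, the ratio was higher in all Coc–Coc pools for 13.6% of genes against Sal–Sal and for 2.74% against Sal–Coc, and Drd2 was among both.

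Ratios of a direct to an indirect pathway peptide precursor showed no such separation. Pdyn counts per Penk count ranged from 0.353 to 0.468 in Sal–Sal, from 0.376 to 0.414 in Sal–Coc and from 0.377 to 0.431 in Coc–Coc, and the groups overlapped (exact permutation test over 3 groups, p = 0.782). For Tac1 per Penk the ranges were 0.167 to 0.326, 0.174 to 0.278 and 0.188 to 0.251, again with overlap (exact permutation p = 0.85). The log2 difference between Coc–Coc and Sal–Sal was -0.03 for Pdyn per Penk and -0.17 for Tac1 per Penk, each less than the SD between the Sal–Sal pools (0.21 and 0.48). Set against a receptor, Pdyn per Drd2 was lower in Coc–Coc, at 1.423 to 1.599 against 1.717 to 2.265 in Sal–Sal and 1.669 to 1.863 in Sal–Coc. Its log2 differences were -0.36 and -0.23 (exact permutation over 3 groups, p = 0.0321, adjusted over 15 ratios 0.0964), as for 50.4% and 39% of genes. Tac1 per Drd2, Pdyn per Adora2a and Tac1 per Adora2a overlapped in every comparison.

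Of the 4 ratios of a receptor to a peptide of its own pathway, 2 separated the Coc–Coc pools from those of both other groups. Technical replicates of both ratios overlapped between Coc–Coc and Sal–Sal. Drd1 per Pdyn reached up to 0.453 in Coc–Coc and began at 0.452 in Sal–Sal. Drd2 per Penk began at 0.257 in Coc–Coc and reached up to 0.266 in Sal–Sal. Drd1 per Pdyn was 0.393 to 0.435 in Coc–Coc, below 0.472 to 0.541 in Sal–Sal and 0.479 to 0.538 in Sal–Coc, with a log2 difference of -0.30 and -0.31 (exact permutation over 3 groups, p = 0.0286, adjusted over 15 ratios 0.0964). The ratio to Pdyn was lower without overlap for 5.04% and 2.79% of genes. Drd2 per Penk was 0.265 to 0.280 in Coc–Coc, above 0.187 to 0.262 in Sal–Sal and 0.219 to 0.225 in Sal–Coc, with differences of 0.33 and 0.29, as for 4.34% and 0.831% of genes (exact permutation over 3 groups, p = 0.1, adjusted 0.237). Between pathways, Drd1 per Penk was lower in Coc–Coc, at 0.160 to 0.175 against 0.191 to 0.236 and 0.193 to 0.204, as for 11.4% and 2.58% of genes (exact permutation over 3 groups, p = 0.025, adjusted 0.0964). Drd1 per Tac1 overlapped in every comparison, at 0.723 to 1.141 in Sal–Sal, 0.732 to 1.108 in Sal–Coc and 0.639 to 0.900 in Coc–Coc (exact permutation over 3 groups, p = 0.807), and Adora2a per Penk overlapped between Coc–Coc and both other groups.

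In all, 6 of the 15 ratios did not overlap between Coc–Coc and Sal–Sal and 6 between Coc–Coc and Sal–Coc, and each of these held Drd1 or Drd2. By construction 9 of the 15 ratios hold one of these genes, and the share among pairs of all genes was not computed, so that this count is a description and is read with the 50.4% and 39% of genes whose ratio to Drd2 separated in the same way.

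Within the indirect pathway, the ratio of Drd2 to Adora2a was higher in both cocaine groups, without passing an adjusted p of 0.05. This ratio was among those added after seeing the data. Its technical replicates overlapped between Sal–Sal (up to 0.7821) and Sal–Coc (from 0.7815). Counts of Drd2 per count of Adora2a were 0.644 to 0.771 in Sal–Sal, 0.815 to 0.925 in Sal–Coc and 0.922 to 1.148 in Coc–Coc. Both cocaine groups were above Sal–Sal without overlap, by 0.30 and 0.50 on the log2 scale, and overlapped with each other (exact permutation over 3 groups, p = 0.00714, adjusted over 15 ratios 0.0536). The ratio to Adora2a was higher without overlap for 10.6% of genes in Sal–Coc and 7.86% in Coc–Coc, each against Sal–Sal. Between Sal–Coc and Sal–Sal, 3 of the 15 ratios did not overlap and all 3 held Adora2a, as the ratio was also higher for Drd1 per Adora2a (0.757 to 0.791 against 0.674 to 0.695) and lower for Adora2a per Penk (0.244 to 0.269 against 0.284 to 0.339), as for 2.33% of genes. In the Coc–Coc pools, Drd1 per Adora2a (0.528 to 0.743) lay below its Sal–Coc range, as for 3.84% of genes. The exact permutation p over 3 groups was 0.111 for Drd1 per Adora2a and 0.154 for Adora2a per Penk.

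**Figure D4:**
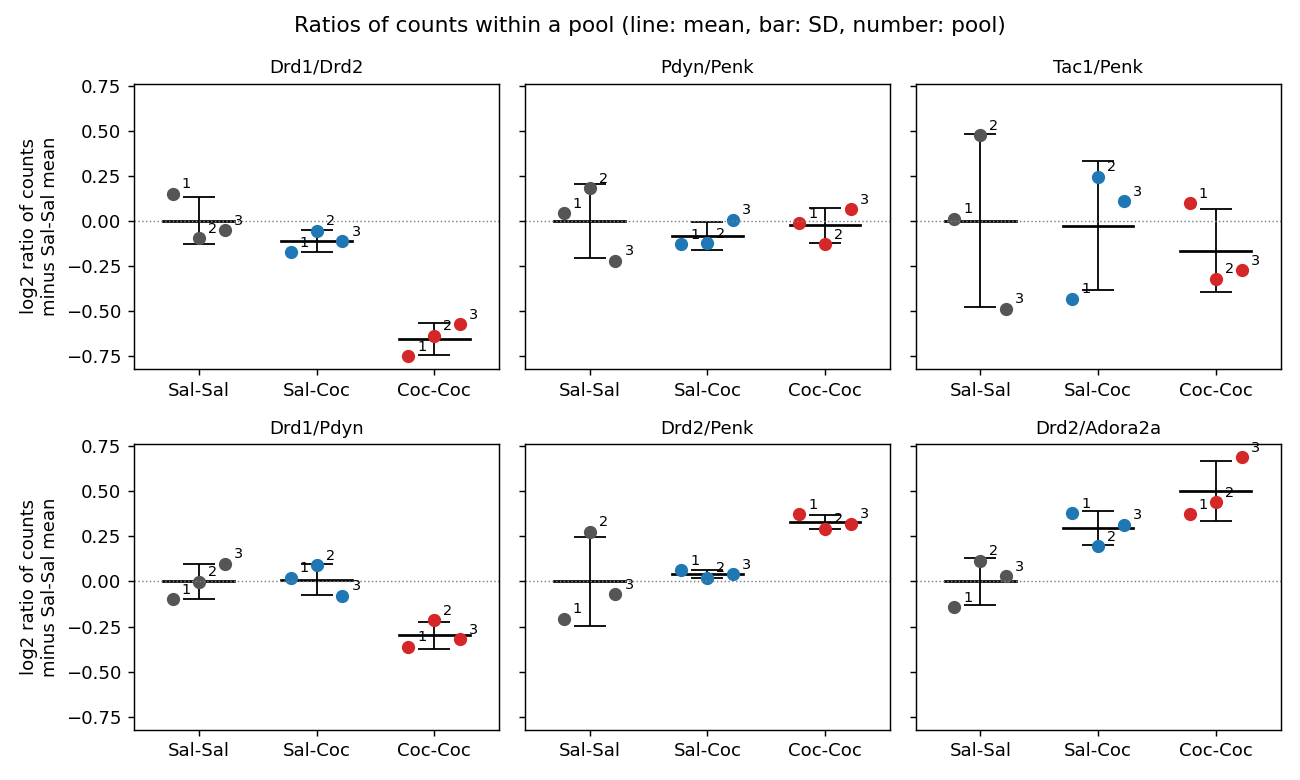
Log2 ratio of the counts of 2 genes within a pool, minus the Sal–Sal mean (y axis), for 6 of the 15 ratios (a panel each) by group, with points for pools, a line for the mean and a bar for the SD (n = 3). Drd1/Drd2 is lower in the 3 Coc–Coc pools, at a mean difference of -0.65, whereas Pdyn/Penk and Tac1/Penk overlap between groups.

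Genes whose pattern over the 9 pools was most like each of the 6 were sought by the correlation of log2 CPM. The search covered 1455 genes with a symbol. Apart from the 6, whose names were given, these were genes that the study listed as changed in these libraries. Genes that the study did not list could not be found, so that a match among the 6 is a description only. For 5 of the 6 the most similar one was another of the 6: Tac1 for Drd1 (r = 0.89), Penk for Pdyn (r = 0.95), Adora2a for Tac1 (r = 0.90), Tac1 for Adora2a and Pdyn for Penk. Drd2 was most like AABR07007715.1 (r = 0.86), followed by Pdyn (r = 0.84) and Ciart (r = 0.83). Between 23 and 172 genes of any name had a higher r with a member than its most similar gene with a symbol, so that this order depends on which genes could be named.

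Of 180 other symbols listed for striatal pathways, signalling and cell types, 16 could be tied to an identifier, all of them genes that the study listed as changed in these libraries, so that no count over these lists is given as support. The lists of the 2 pathways hold 10 symbols each, 3 of them members. Of their other symbols, none of the direct pathway and 1 of the indirect pathway was among the 16. That gene, Sp9, a transcription factor needed for the development of indirect pathway neurons, stood at 9.64 ± 2.99 CPM in Sal–Sal, 2.15 ± 0.484 CPM in Sal–Coc and 3.14 ± 1.72 CPM in Coc–Coc (edgeR adjusted p = 0.00751 and 0.0285 against Sal–Sal). Sp9 could be named only because the study listed it as changed in these libraries, so that these p-values are no separate support. It was low in the same 2 pools as the 6 genes. Its deviations from the group mean were -0.54 in Sal–Sal pool 3 and -0.36 in Sal–Coc pool 1. Tmem158, listed as a marker of position within the striatum and named here after its values were seen, was low there as well, with deviations of -0.53 and -0.79. Slc32a1, the vesicular GABA transporter that projection neurons of both pathways use, stood at 221 ± 13.1, 172 ± 15.3 and 156 ± 4.74 CPM, and deviated by -0.08 in Sal–Sal pool 3 and by 0.09 in Sal–Coc pool 1. Of the markers of other cells, 2 of 8 for astrocytes (Slc1a2, S100b), 1 of 8 for microglia (C1qb) and 2 of 6 for endothelium (Flt1, Esam) could be tied to an identifier. These astrocyte, microglia and endothelium genes deviated by -0.19 to 0.06 in Sal–Sal pool 3 and by -0.04 to 0.23 in Sal–Coc pool 1. Pvalb, 1 of 10 symbols for interneurons, deviated by 0.32 and -0.13 in these pools. Hba-a2, 1 of 6 for blood, deviated by 0.11 and -0.56, at group means of only 0.63 and 0.86 CPM. Nefl, 1 of 8 pan-neuronal symbols, deviated by -0.16 and -0.23. Of the other joined genes, Creb1 deviated by 0.15 and -0.07, Nts by -0.28 and 0.07 and Cpe by -0.17 and 0.04. Vgf deviated by -0.16 and -0.16, and Rph3a by -0.08 and 0.05. The part of any of these genes or cells in the low values was not tested.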

How the data were processed

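Poly(A)+ RNA of nucleus accumbens was sequenced from 3 pools in each of 3 groups. Before depositing, the authors converted base calls with bcl2fastq 2.17.1.14, mapped them to the rat genome of Ensembl with STAR, dropped multi-mapped reads and obtained gene counts with HTSeq 0.5.3. The deposited values are raw counts of 31546 Ensembl genes in 36 tables, without normalization, and no row lacked a gene name. Whether the counting used strand is not given in the sources used here.

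The 4 technical replicates were summed per pool (36372166 to 42449841 counts). The main test was the quasi-likelihood test of edgeR 4.0.16 (R 4.3.3), fitted to all 9 pools after TMM scaling and the filterByExpr filter, with a Benjamini-Hochberg adjusted p of 0.05 as threshold. It was tested on simulated data. Log2 CPM used a prior count of 2. Ratios of counts were compared with two-sided exact permutation tests over pools. Fits with DESeq2 1.42.0, limma-voom (limma 3.58.1), other normalizations and filters, the 6 pools compared, a replicate block, a single technical replicate per pool and each pool left out were alternatives. The ratios Drd1/Drd2, Pdyn/Penk and Tac1/Penk belonged to the original design, and the other 12 were added after seeing the data. The 6 genes were set by name, without a threshold on values, but they and the gene lists were chosen with earlier results of these data known. All 6 are reported, and for each the 3 genes with a symbol and the highest correlation are its most similar genes. The tables give identifiers without symbols. Names of the 6 genes were given with their identifiers, and other symbols were joined to identifiers by published fold changes of the same libraries, 1506 of 1539 symbols, after the data were seen. Whether pools of a group came from separate rearing or injection sessions is not stated, and p-values measure the spread between these pools. Dorsal striatum was not analysed here.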

Additional observations from a re-analysis of the deposited data

How the results depend on the processing

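With other normalizations, filters, tests, technical replicates or a block, and with any 1 pool left out, 0 of the 6 genes were called in each comparison. Leaving out Sal–Sal pool 3 and Sal–Coc pool 1 together, chosen after seeing the data, gave 2 called genes in Coc–Coc against Sal–Sal. This removes the lowest pool of both groups for each gene and so narrows the spread that all comparisons share. Without Sal–Sal pool 3 alone the estimates were alike but not called, at -0.41 for Drd1 (edgeR adjusted p = 0.256) and -0.43 for Tac1 (adjusted p = 0.423). Estimates near 0 changed sign. In Sal–Coc against Sal–Sal, log2 fold changes became 0.0061 for Drd1 and 0.0662 for Tac1 with total counts only. Tac1 became 0.0009 with no filter and with only the 6 pools compared and 0.0062 with a minimum of 1 CPM in 3 pools. Penk became -0.001 with RLE size factors and with DESeq2, -0.0272 with upper-quartile factors, -0.0251 with limma-voom and -0.0236 with the replicate block. With the 2 pools left out together, Drd1 became 0.0085 and Tac1 0.0576 in Sal–Coc against Sal–Sal, Pdyn -0.16 and Penk -0.0377 in Coc–Coc against Sal–Sal, and Pdyn -0.12, Adora2a -0.10 and Penk -0.15 in Coc–Coc against Sal–Coc.

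Leaving out 1 pool at a time moved Sal–Coc against Sal–Sal estimates of Drd1 from -0.24 to 0.17, Pdyn from -0.30 to 0.15, Tac1 from -0.29 to 0.34, Drd2 from -0.11 to 0.26, Adora2a from -0.41 to 0.0029 and Penk from -0.15 to 0.23. In Coc–Coc against Sal–Sal they ran from -0.16 to 0.24 for Pdyn, -0.43 to 0.0453 for Tac1, -0.24 to 0.0509 for Adora2a and -0.0337 to 0.27 for Penk, and in Coc–Coc against Sal–Coc from -0.12 to 0.33 for Pdyn, -0.49 to 0.0764 for Tac1, -0.10 to 0.30 for Adora2a and -0.15 to 0.23 for Penk. Drd2 stayed positive in both comparisons with Coc–Coc (0.27 to 0.52 and 0.15 to 0.52), and Drd1 negative (-0.41 to -0.10 and -0.42 to -0.03). The Drd1/Drd2 difference ran from -0.70 to -0.58 against Sal–Sal and from -0.58 to -0.49 against Sal–Coc.

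The count of all genes called depended more on the setting. For Sal–Coc against Sal–Sal it fell from 2572 to 1445 with only the 6 pools compared, and leaving out 1 pool gave 982 to 2835. For Coc–Coc against Sal–Sal (1702) it was 883 with total counts only, 2869 with DESeq2, 1126 with the replicate block, 1057 with technical replicate a alone and 2948 without the 2 pools, and 0 (without Coc–Coc pool 3) to 2131 with 1 pool left out. For Coc–Coc against Sal–Coc (0) it was 5 with no filter, 153 with DESeq2, 3 with technical replicate a alone and 0 to 1 with 1 pool left out. With total counts alone, 82.6% of the calls in Sal–Coc and 79.4% in Coc–Coc were higher than Sal–Sal, against 64.3% and 65.5% with TMM. The pool numbers recur in the labels for different animals. Same-numbered pools had a mean correlation of -0.03 over 9 pairs (-0.40 to 0.25), and other pairs one of 0.02 over 18. With deviations taken from means of 3 pools, this cannot show whether same-numbered pools shared a session. The replicate block called 0 of the 6 genes. With 3 pools a group, a change in these genes smaller than their intervals was not detectable.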
